A study of Mus musculus with 2 samples.

Results

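Venous endothelial cells of the mouse ileum, the end segment of the small bowel, were compared with the Plvap-high capillary cells that were caught in the same 2 single-cell RNA libraries. Both classes were chosen cell by cell from raw counts of unique molecular identifiers (UMIs), so the values that chose them are described here and were not tested. A cell was kept with at least 500 detected genes and at most 15% mitochondrial UMIs, and taken as blood endothelial with at least 5 UMIs of Flt1, Cd34, Plvap and Esam together and at most 2 of the lymphatic genes Mmrn1, Lyve1, Reln and Prox1. It was venous with at least 4 UMIs of Ackr1, Selp and Madcam1 together. It was a Plvap-high capillary cell with at most 1 UMI of those genes, at most 1 of Sema3g, Fbln5, Stmn2, Gja5 and Bmx, and more Plvap than Gpihbp1 plus Aqp1. These rules gave 531 venous cells (97 in library 1 and 434 in library 2) and 2352 Plvap-high capillary cells (301 and 2051), or 2883 of the 7328 barcodes in all. Venous cells were 11.6% of the blood endothelial cells of library 1 (95% exact binomial interval 9.52 to 14.0%) and 9.14% of those of library 2 (8.34 to 9.996%), while Plvap-high capillary cells were 36.0 and 43.2%.

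The libraries carry the same labels: wild-type male C57Bl/6 mice, 8 weeks old, from whose ileum EpCAM-negative, CD45-negative, CD31-positive cells were sorted, with PDPN-negative (blood) and PDPN-positive (lymphatic) gates. No treatment or altered allele is given. Nothing in the labels ties a library to its own mouse, or a cell to a gate. The p-values below measure how far the class difference varied between these 2 libraries, with that spread shared across genes. It may be technical. Library 1 held 1026 barcodes and 3806199 UMIs, and library 2 held 6302 barcodes and 26645476 UMIs. Venous cells were the deeper class, with medians of 5325 UMIs in library 1 and 6339.5 in library 2, against 3653 and 4149 UMIs in capillary cells. Their median mitochondrial share was 3.86 and 3.73%, against 2.48 and 2.71% in capillary cells.

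Postcapillary venules collect blood from the capillary bed and are the place where most leukocytes leave the circulation. Their endothelium stores P-selectin (Selp) for rolling, carries the chemokine-binding receptor Ackr1, and in the gut displays Madcam1, the ligand that guides lymphocytes with the integrin alpha4beta7. Capillaries of the intestinal mucosa are fenestrated, and Plvap forms the diaphragms that span those pores. The comparison asks what else separates the vessel segment of leukocyte exit from the segment of exchange.

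The genes of the rule stood far apart, by construction. Selp was at 5222 and 4000.0 CPM (the UMIs of a gene counted per 1000000 UMIs of its class, library 1 first and library 2 second) in venous cells and at 5.25 and 5.88 CPM in capillary cells. Ackr1 was at 2186 and 2150.0 CPM in venous cells and at 0.875 and 4.32 CPM in capillary cells, and Madcam1 at 1703 and 1425 CPM in venous against 1.75 and 2.22 CPM in capillary cells. All 3 genes had a UMI in 84.5% of the venous cells of library 1 and 79.0% of those of library 2. Plvap itself was also abundant in venous cells, at 3342 and 3459 CPM, against 4662 and 4660.3 CPM in capillary cells. Flt1, the decoy-like VEGF receptor, was at 873 and 1209 CPM in venous cells and at 3729 and 3559 CPM in capillary cells. Aqp1, a water channel, was at 822 and 698 CPM in venous cells, against 136 and 129 CPM in a capillary class limited by it. Fbln5, an elastic fibre protein on which only the capillary class was limited, was at 289 and 288 CPM in venous cells, against 4.38 and 3.99 CPM in capillary cells.

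Few cells lay near the limits, whose values chose the classes and are given without a test. The sum of Ackr1, Selp and Madcam1 reached at least 12 UMIs in 87 of 97 venous cells of library 1 and 363 of 434 of library 2, with class medians of 33 and 37 UMIs. In library 2, the 21 cells just inside the limit (4 to 5 UMIs) held Cldn5 at 569.9 CPM, Sele at 27.6 CPM and Cxcl12 at 1131 CPM. The 32 cells just outside it (2 to 3 UMIs) held them at 532, 17.0 and 1676 CPM, while cells with at least 12 UMIs stood at 1426, 837 and 265 CPM. Library 1 had 1 cell just inside and 3 just outside. On the capillary side, 7 and 32 cells had Plvap 1 UMI above Gpihbp1 plus Aqp1, and 6 and 38 cells had them level and stayed outside. In library 2, Cxcl12 was at 2757 CPM in those just inside and 2410 CPM in those just outside.

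Both classes carried endothelial RNA. Of 8 pan-endothelial markers (Pecam1, Cdh5 and others), all were detected in each class and library, summing to 6384 and 5594 CPM in venous cells and 4947 and 4304 CPM in capillary cells. The 8 vein markers that the rule did not read, such as Nr2f2 and Vwf, summed to 4854 and 4342 CPM in venous cells, against 735 and 694 CPM in capillary cells. The 8 capillary markers, such as Kdr and Cd36, summed to 1568 and 2087 CPM in venous cells, against 4986 and 5334 CPM in capillary cells. Part of the RNA of other cell types lay in single cells. In library 2, 1 venous cell held 5920 of the 5991 Igkc UMIs of its class, and 1 capillary cell held 4713 of 4780 Reg3b UMIs, while the 246 Igkc UMIs of the capillary class were spread over 235 cells. The 8 lymphatic markers summed to 276 and 224 CPM in venous cells, against 128 and 113 CPM in capillary cells. Of these markers, Ccl21a had no UMI in either class of either library. No barcode of these classes occurred in both libraries.

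Across the transcriptome the classes differed widely. Of 9978 genes tested, 2633 passed at a false discovery rate of 0.05 (26.4%), 1343 higher in venous cells (13.5%) and 1290 lower (12.9%). Among the 3815 with a mean of at least 50 CPM in either class, 834 were higher and 746 lower, a larger share. The list counts below are to be read against both. The test was edgeR's quasi-likelihood test on the 4 class sums, paired within libraries, with Benjamini-Hochberg adjustment, and the median log2 change of all tested genes was -0.03. Changes of at least 2 on the log2 scale were more often increases (330) than decreases (211), as were those of at least 4 (120 and 22). Of the passing genes 98.3% moved the same way in both libraries, as did 72.0% of all tested genes. The spread was shared across genes, since 4 sums leave 1 residual degree of freedom, so single adjusted p-values are smaller than 2 libraries could give a gene alone. DESeq2 on the same sums called 911 genes, 907 of them among the 2633 and in the same direction. In 21 passing genes, 1 cell gave at least 50% of the UMIs of the higher class in a library where that class had 10 or more, and 45 moved in opposite directions in the 2 libraries.

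**Figure D1:**
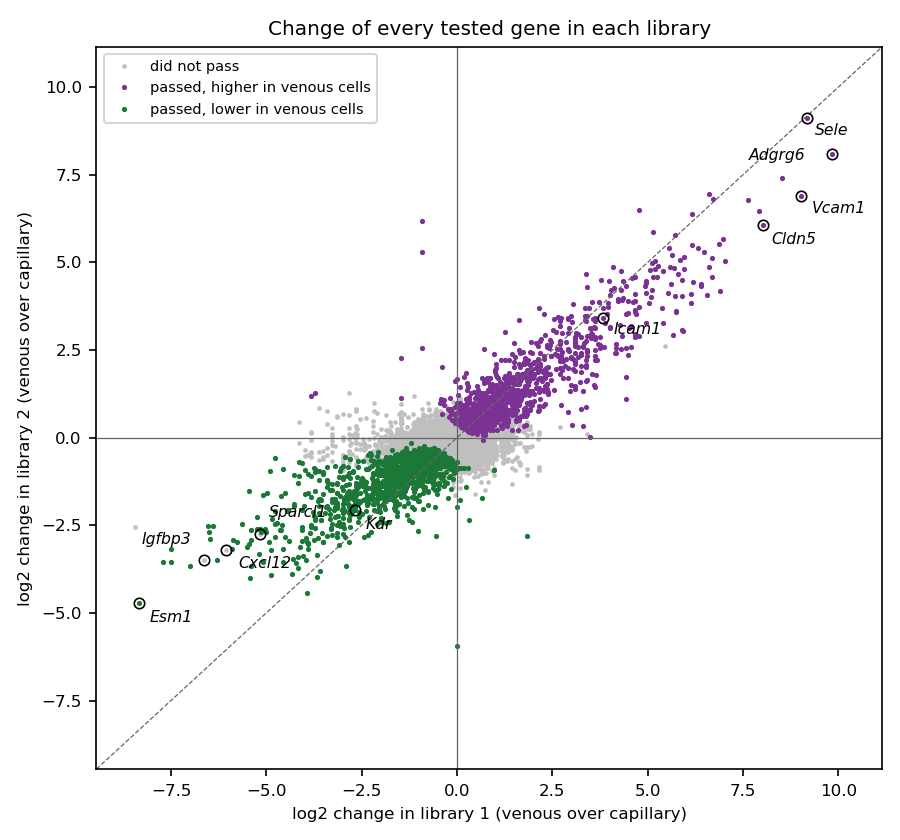
Change of every tested gene (venous over Plvap-high capillary, log2 of CPM plus 1) in library 1 (x axis) and library 2 (y axis), each point a gene, coloured by whether and how it passed. Sele and Adgrg6 lie at the upper right in both libraries, while Cxcl12, Igfbp3 and Sparcl1 lie at the lower left as genes that did not pass.

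The largest increases included adhesion molecules and secreted and receptor proteins that were near 0 in capillary cells. Sele, E-selectin, the inducible selectin of activated endothelium, encoded at chr1:164048234-164057677 (plus strand) on GRCm38 by the GENCODE vM21 annotation, was at 575 and 737 CPM in venous cells and 0 and 0.333 CPM in capillary cells. With 2443 UMIs in venous and 3 UMIs in capillary cells over both libraries, the ratio of its CPM was 2411 (95% counting interval 824 to 11700). Adgrg6, an adhesion G protein-coupled receptor encoded at chr10:14402583-14545659 (minus strand), was at 918 and 608 CPM in venous cells and 0 and 1.22 CPM in capillary cells (log2 9.26 ± 0.23 SE, edgeR adjusted p = 4.39e-309). Hdc, the enzyme that makes histamine from histidine, was at 697 and 442 CPM in venous cells and 6.13 and 2.55 CPM in capillary cells (log2 7.35 ± 0.20). Cytl1, a small secreted protein, stood at 1006 and 682 CPM in venous against 1.75 and 2.99 CPM in capillary cells. The cell adhesion molecule Cadm3 stood at 374 and 194 CPM in venous cells and 0.875 and 0.776 CPM in capillary cells, and the kallikrein protease Klk14 at 197 and 161 CPM in venous against 0.875 and 0.444 CPM in capillary cells. The lysosomal protease Ctsh was at 133 and 186 CPM in venous cells, against 0.875 and 1.22 CPM in capillary cells, and the lectin pathway protease Masp1 at 88.2 and 55.9 CPM in venous cells, against 0 and 0.444 CPM in capillary cells. Stxbp6, a binder of SNARE proteins, was at 101 and 56.6 CPM in venous cells, against 0 and 0.665 CPM in capillary cells. For these 9 genes every venous value lay above every capillary value. That is no separate result, since they were chosen by the size and shared direction of the change.

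The largest decreases included a VEGF-induced proteoglycan, a secretoglobin and a tetraspanin. Esm1, a secreted proteoglycan induced by VEGF, was at 0 and 11.7 CPM in venous cells and 325 and 333 CPM in capillary cells (log2 -5.04 ± 0.21 SE, edgeR adjusted p = 1.93e-103). Scgb3a1, a secretoglobin, was at 50.7 and 185 CPM in venous cells and 1757 and 2171 CPM in capillary cells (log2 -3.92). Tspan8, a tetraspanin, was at 0 and 25.2 CPM in venous against 209 and 304 CPM in capillary cells, and Arap2, a GTPase-activating protein, at 0 and 12.4 CPM in venous against 179 and 156 CPM in capillary cells. Alox12, a lipoxygenase, was at 3.76 and 3.45 CPM in venous cells, against 71.8 and 95.2 CPM in capillary cells. The potassium channel subunit Abcc9, also in the pericyte marker list used below, had 0 and 4.48 CPM in venous cells, against 77.9 and 60.99 CPM in capillary cells. Lrrc3b, Fam167b, Gprc5b and Ssu2 were also among them, at 1.88 to 7.93 CPM in venous cells and 67.1 to 117 CPM in capillary cells. The venous values of Esm1, Arap2, Tspan8 and Abcc9 were 0 in library 1, and with DESeq2 the adjusted p of Esm1 was 0.0713, of Arap2 0.0817 and of Tspan8 0.142. Without the pairing within libraries the edgeR adjusted p of Scgb3a1 was 0.133 and of Tspan8 0.127.

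**Figure D2:**
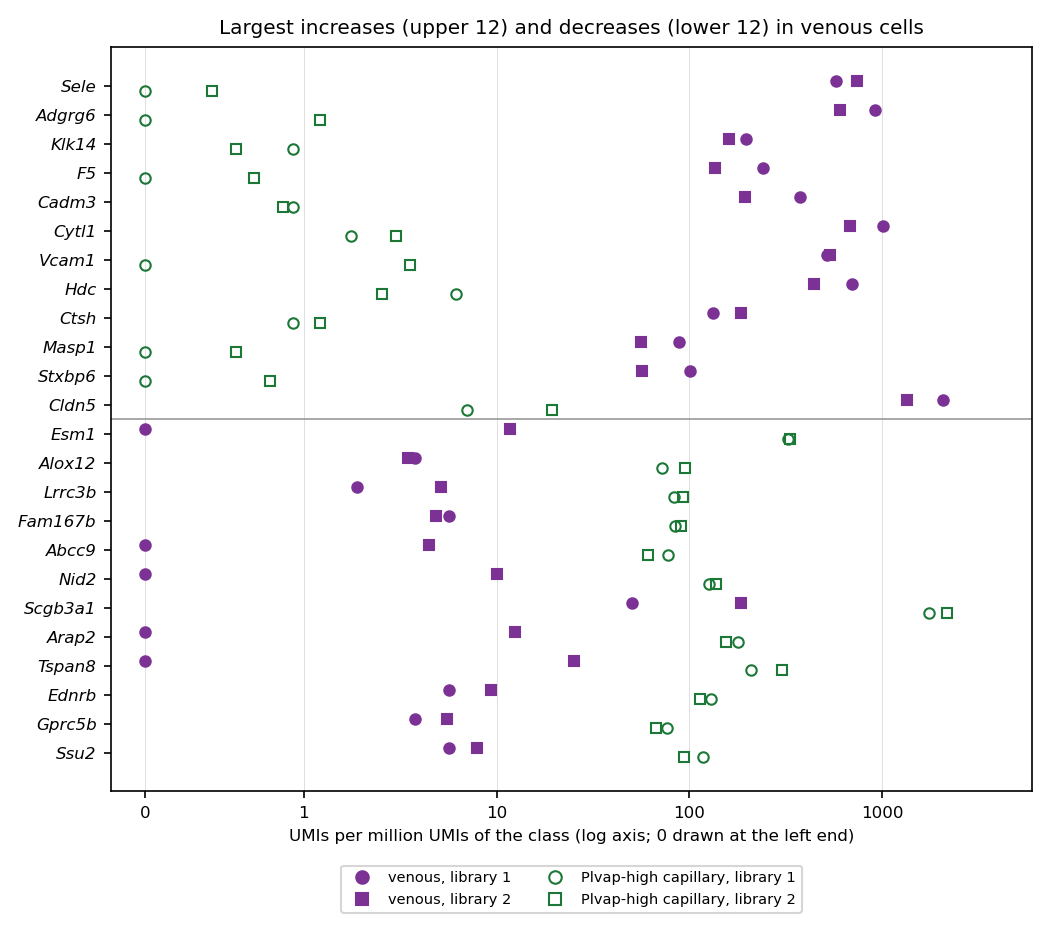
Levels of the 12 genes with the largest increase and the 12 with the largest decrease in venous cells, in CPM on a log axis, with 0 drawn at the left end. Filled symbols are venous and open symbols Plvap-high capillary cells (circle library 1, square library 2), and no venous symbol overlaps the capillary range of its gene. The genes were chosen by the size and shared direction of the change, so this gap is no separate result.

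Genes by which leukocytes attach included some of the largest increases. Of 19 tested genes for leukocyte adhesion, 10 were higher and 6 lower in venous cells (median log2 change 0.36, against -0.03 over all genes tested). Vcam1, the ligand of the integrin VLA-4, was at 518 and 540.2 CPM in venous cells and 0 and 3.55 CPM in capillary cells (log2 7.52 ± 0.21 SE). Icam1, the ligand of LFA-1 for firm arrest, was at 3376 and 2719 CPM in venous cells and 236 and 253 CPM in capillary cells (log2 3.70 ± 0.14, edgeR adjusted p = 1.04e-152). Icam2, the constitutive LFA-1 ligand, was only slightly higher, with 206 and 225 CPM in venous cells and 154 and 196 CPM in capillary cells (log2 0.36). Jam3, a junctional adhesion molecule, was lower, at 3.76 and 26.9 CPM in venous cells against 199.6 and 174 CPM in capillary cells (log2 -2.96). So were the sialomucins Podxl (193 and 433 CPM in venous against 1972 and 2148 CPM in capillary cells) and Emcn (312 and 423 CPM in venous against 786 and 947 CPM in capillary cells), which are known to limit adhesion when they coat the lumen. The 3 genes that did not pass were Pecam1, which encodes CD31, Cd99l2 and Itga6, with log2 values of -0.08, 0.41 and -0.03.

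The 250 bases before the start of Sele and Icam1 are shown because both genes are known targets of NF-kB and moved together here. They are from the RefSeq promoter table on GRCm38.p6, 5′ to 3′ on the plus strand. The Sele window lies at chr1:164047984-164048233 and the Icam1 window at chr9:21015690-21015939.
Sele: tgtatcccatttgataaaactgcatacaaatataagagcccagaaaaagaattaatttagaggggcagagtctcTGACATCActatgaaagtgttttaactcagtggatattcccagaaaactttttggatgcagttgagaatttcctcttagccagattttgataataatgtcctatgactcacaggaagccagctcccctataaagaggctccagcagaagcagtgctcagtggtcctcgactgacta
Icam1: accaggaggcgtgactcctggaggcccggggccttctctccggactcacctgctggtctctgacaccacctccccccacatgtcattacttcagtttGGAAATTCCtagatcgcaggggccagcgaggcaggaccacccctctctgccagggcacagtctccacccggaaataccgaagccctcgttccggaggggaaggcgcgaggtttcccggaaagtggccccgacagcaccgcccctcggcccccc
Capitals mark matches on either strand to GGAANTTCC, a form of the site bound by RelA, and to TGACATCA, the CRE-like element known from the E-selectin promoter. These motifs were chosen with the sequences in view, and they do not overlap. Icam1 held GGAANTTCC, starting 153 bases before the start site, and Sele held TGACATCA, starting 176 bases before it. The same windows of all 27025 genes in the table held GGAANTTCC in 0.944% and TGACATCA in 3.41% of genes. The 10-base NF-kB consensus was in neither window and in 4.46% of all. Other forms of the site were not searched for and are left unmarked. The lack of a match therefore does not show that a window lacks an NF-kB site.

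The inhibitors, subunits and targets of NF-kB, the transcription factor of acute inflammation, were mostly higher in venous cells. Of 22 tested, 18 were higher, none lower, and 4 did not pass (Nfkbib, Tnfaip2, Cflar and Tnfaip8), with a median log2 change of 0.84 against -0.03 over all genes. Nfkbia, the feedback inhibitor that NF-kB itself induces, was at 2691 and 2463 CPM in venous cells and 1201 and 1075 CPM in capillary cells (log2 1.27). Traf1, an adaptor of TNF receptors, was at 109 and 115 CPM in venous cells and 8.75 and 12.4 CPM in capillary cells (log2 3.36 ± 0.20 SE). The ubiquitin editor Tnfaip3 (A20), another feedback inhibitor, was at 219.7 and 409 CPM in venous against 107 and 94.9 CPM in capillary cells (log2 1.83), and Ripk2, the kinase behind NOD receptors, at 56.3 and 61.1 CPM in venous against 17.5 and 13.5 CPM in capillary cells (log2 2.14). Subunit changes were smaller, with log2 values of 1.16 for Rel, 1.02 for Relb, 0.93 for Nfkb1, 0.74 for Rela and 0.51 for Nfkb2. Nfkbie, an inhibitor at 20.7 and 28.3 CPM in venous cells and 16.6 and 9.65 CPM in capillary cells, passed here but had an adjusted p of 0.511 with DESeq2. Tnip1 passed as higher although its libraries differed in direction (39.4 and 58.3 CPM in venous and 49.9 and 30.1 CPM in capillary cells).

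Of 9 tested chemokine and chemokine receptor genes, 5 were higher in venous cells and 1, the receptor Cxcr4, was lower (median log2 change 0.40). Cxcl10, an interferon-induced attractant of T cells, was at 466 and 451 CPM in venous cells and 12.3 and 6.76 CPM in capillary cells (log2 5.95 ± 0.18 SE). Its relative Cxcl9 was at 50.7 and 66.9 CPM in venous cells, from 6 and 34 cells, against 1.75 and 3.55 CPM in capillary cells, and the membrane-anchored Cxcl16 at 37.6 and 71.1 CPM in venous cells, against 7.003 and 5.21 CPM in capillary cells. Cxcl1, a neutrophil attractant, was at 111 and 86.9 CPM in venous cells and 15.8 and 16.7 CPM in capillary cells, with 66.1% of its venous UMIs in library 1 from 1 cell. Cxcr4, the receptor of Cxcl12, was lower, with 0 and 1.38 CPM in venous cells, against 35.9 and 22.95 CPM in capillary cells (log2 -4.31). Cxcl12 itself was at 50.7 and 350.1 CPM in venous cells and 3448 and 3208 CPM in capillary cells, which did not overlap, but it did not pass (log2 -4.0 ± 1.28 SE, edgeR adjusted p = 0.398).

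Cytokines and their receptors tended to be higher in venous cells, with 13 of 24 tested genes higher, 3 lower and 8 not passing (median log2 change 0.51). Csf3, the granulocyte growth factor G-CSF, was at 139 and 300.1 CPM in venous cells and 3.50 and 13.2 CPM in capillary cells (log2 4.65 ± 0.19 SE). Il33, a nuclear alarmin, was at 52.6 and 39.3 CPM in venous cells, against 0 and 2.33 CPM in capillary cells, and the macrophage growth factor Csf1 at 145 and 132 CPM in venous cells, against 26.3 and 21.7 CPM in capillary cells. The interleukin Il6 was at 327 and 368 CPM in venous cells and 93.7 and 102 CPM in capillary cells (log2 1.92), and its receptor parts Il6ra and Il6st were higher as well (log2 2.14 and 1.19). The interleukin-1 receptor Il1r1 was at 349 and 287 CPM in venous cells, against 88.4 and 73.7 CPM in capillary cells (log2 2.05). The lower genes were Il15, a survival factor of memory and natural killer lymphocytes (18.8 and 14.5 CPM in venous against 70.9 and 83.5 CPM in capillary cells), Tnfrsf11b and Osmr (log2 -3.84 and -0.38). The receptors Tnfrsf1a, Ifngr1 and Ltbr did not pass, with log2 values of 0.29, 0.18 and -0.09.

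Venous identity genes outside the rule were almost uniformly higher. Of 22 tested vein markers, 20 were higher, 1 lower (Emcn) and 1 did not pass (Aplnr, 143 and 87.6 CPM in venous and 128 and 103 CPM in capillary cells), with a median log2 change of 3.1. Nr2f2 (COUP-TFII), the transcription factor that specifies veins, was at 501 and 481 CPM in venous cells and 12.3 and 18.96 CPM in capillary cells (log2 4.88 ± 0.16 SE, edgeR adjusted p = 5.11e-181). Lbp, the lipopolysaccharide-binding protein, was at 233 and 169 CPM in venous cells and 0.875 and 2.33 CPM in capillary cells (log2 6.43). Lrg1, a secreted modulator of TGF-beta signalling, was at 1470 and 1277 CPM in venous against 144 and 196 CPM in capillary cells, and the protease Tll1 at 233 and 171 CPM in venous against 21.9 and 15.97 CPM in capillary cells. Ephb4, the ephrin receptor used as a classical vein marker, changed far less, at 167 and 198 CPM in venous cells and 151 and 136 CPM in capillary cells (log2 0.49), and the neuropilin Nrp2 likewise (log2 0.33).

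Among 35 endothelial transcription factors tested, 14 were higher, 8 lower and 13 did not pass (median log2 change 0.04). With DESeq2 6 of them were higher and 4 lower. Over all genes tested, 13.5% were higher and 12.9% lower. Foxc1, a forkhead factor of vascular development, was at 86.4 and 111 CPM in venous cells and 2.63 and 3.77 CPM in capillary cells (log2 4.96 ± 0.25 SE), and its relative Foxc2 at 9.39 and 15.9 CPM in venous against 0.875 and 2.33 CPM in capillary cells. Gata6 was at 24.4 and 25.9 CPM in venous cells, against 0 and 1.22 CPM in capillary cells, but its log2 change of 4.64 was 1.67 with equal numbers of cells in each class (edgeR adjusted p = 0.0718). Meox2, a homeobox factor, was at 135 and 117 CPM in venous cells and 4.38 and 5.88 CPM in capillary cells. Among the lower factors were Sox17 at 101 and 158 CPM in venous against 242 and 356 CPM in capillary cells, Sox18 at 165 and 179 CPM in venous against 425 and 484 CPM in capillary cells and Mef2c at 246 and 287 CPM in venous against 827 and 762 CPM in capillary cells. Tcf15, the partner of Meox2 in heart capillaries, was at 22.5 and 67.95 CPM in venous cells and 234 and 195 CPM in capillary cells (log2 -1.82). The pan-endothelial Erg, Tal1 and Lmo2 did not pass, with log2 values of -0.19, 0.09 and -0.06.

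**Figure D3:**
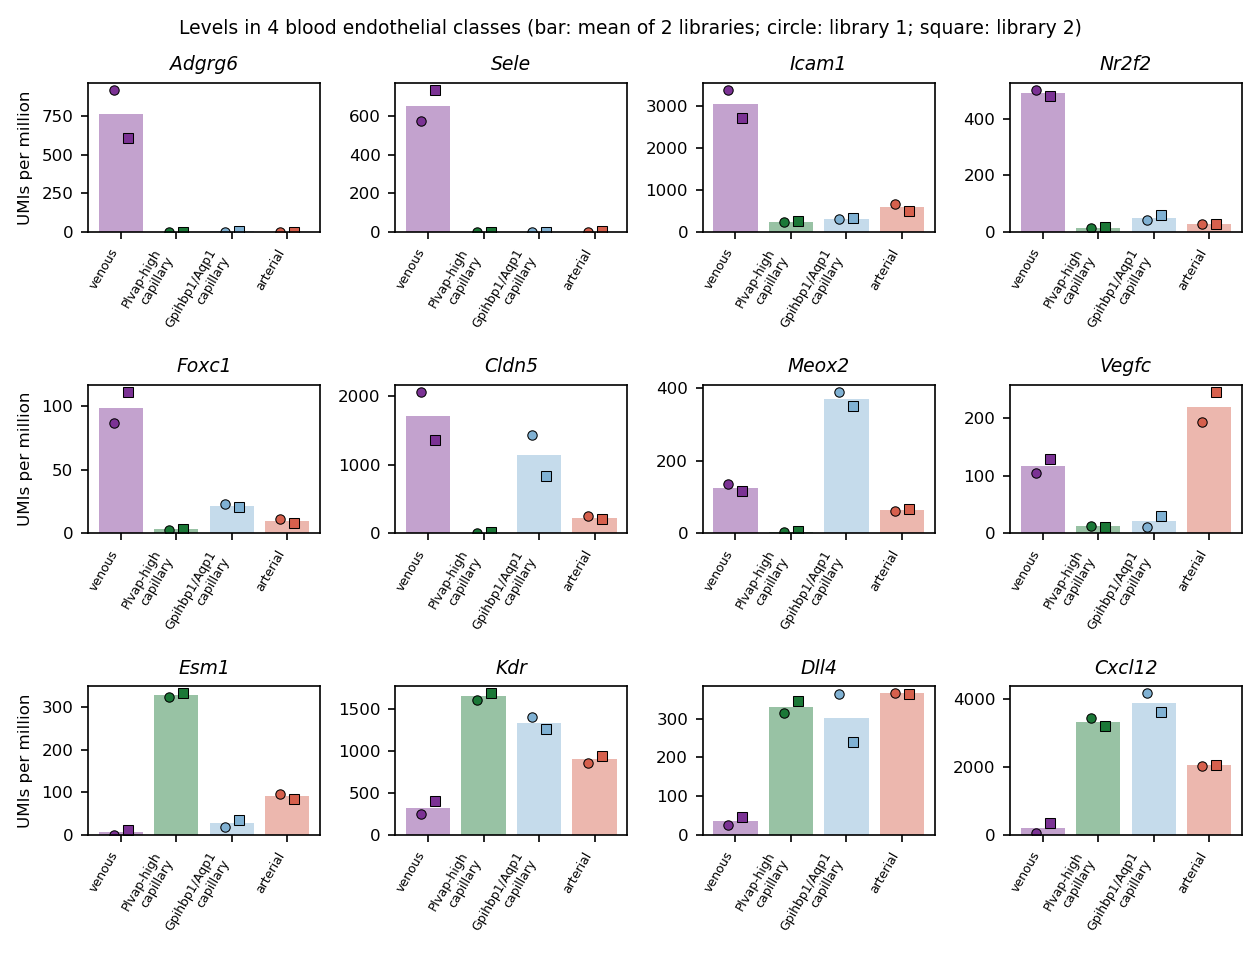
Levels of 12 genes in 4 classes of blood endothelial cells, in CPM on linear axes (bar: mean of 2 libraries, circle: library 1, square: library 2). Adgrg6, Sele, Icam1, Nr2f2 and Foxc1 are highest in venous cells, whereas Cldn5 and Meox2 are also high in Gpihbp1/Aqp1 capillary cells and Vegfc in arterial cells.

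Some genes that separated the classes were also present in other blood endothelial cells, 1143 Gpihbp1/Aqp1 capillary cells and 847 arterial cells. Cldn5, the main claudin of tight endothelial junctions, encoded at chr16:18776847-18778262 (plus strand), was at 2064 and 1353 CPM in venous cells and 7.003 and 19.4 CPM in Plvap-high capillary cells (log2 6.61 ± 0.19 SE). It was at 1428 and 842 CPM in the capillary cells with at least as much Gpihbp1 plus Aqp1 as Plvap, and at 249.6 and 211 CPM in arterial cells. Meox2 was at 391 and 352 CPM in Gpihbp1/Aqp1 capillary cells and 60.97 and 68.5 CPM in arterial cells, in each library above its level in Plvap-high capillary cells. Sele was at 0 and 0.296 CPM in Gpihbp1/Aqp1 capillary cells and 0 and 2.44 CPM in arterial cells, and Adgrg6 at 1.63 and 4.73 CPM in Gpihbp1/Aqp1 capillary and 0 and 2.17 CPM in arterial cells. Esm1 was at 19.5 and 35.2 CPM in Gpihbp1/Aqp1 capillary cells and 97.2 and 83.97 CPM in arterial cells. Kdr was lowest in venous cells, with 1409 and 1263 CPM in Gpihbp1/Aqp1 capillary and 859 and 938 CPM in arterial cells. These levels are descriptions and were not tested between the other classes.

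Junction genes were split, with 7 of 22 higher, 8 lower and 7 not passing in venous cells (median log2 change 0.12), against 1 higher and 5 lower with DESeq2. Of all genes tested 13.5% were higher and 12.9% lower. Besides Cldn5, the scaffold gene Tjp1 (log2 0.65) and the tight junction gene Ocln (9.39 and 8.28 CPM in venous against 0 and 1.22 CPM in capillary cells) were higher. Cldn15, a pore-forming claudin, was at 7.51 and 19.3 CPM in venous cells and 113 and 95.6 CPM in capillary cells (log2 -2.47). Gja4, the connexin Cx37 of arterial and capillary gap junctions, was at 9.39 and 13.5 CPM in venous cells and 160.2 and 163 CPM in capillary cells (log2 -3.60 ± 0.21 SE). Cdh5 (VE-cadherin), the adherens junction protein of all endothelium, did not pass, at 769.8 and 796 CPM in venous and 862 and 725 CPM in capillary cells.

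Genes of clotting and complement were more often higher, with 12 of 23 tested genes higher, 6 lower and 5 not passing in venous cells (median log2 change 0.69). The shares over all genes tested were 13.5% higher and 12.9% lower. F5, coagulation factor V, was at 242 and 136 CPM in venous cells and 0 and 0.554 CPM in capillary cells (log2 8.22 ± 0.29 SE). Procr, the endothelial receptor of protein C, was at 516 and 699 CPM in venous against 38.5 and 46.9 CPM in capillary cells (log2 3.93). Vwf, the platelet-tethering protein stored with P-selectin, was at 1472 and 1301 CPM in venous cells and 189.9 and 148 CPM in capillary cells (log2 3.14). Some complement genes were higher too, with the C1 inhibitor Serping1 at 205 and 205 CPM in venous against 9.63 and 21.4 CPM in capillary cells and the C1 protease C1ra at 84.5 and 68.3 CPM in venous against 13.1 and 7.65 CPM in capillary cells. Cd55, which dissolves complement convertases on cells, was at 48.8 and 50.7 CPM in venous cells, against 5.25 and 9.43 CPM in capillary cells. The lower genes included Plat, the tissue plasminogen activator (22.5 and 61.05 CPM in venous against 256 and 244 CPM in capillary cells), Serpine2, a thrombin inhibitor (1.88 and 10.3 CPM in venous against 91.03 and 72.5 CPM in capillary cells), and Thbd, thrombomodulin (238 and 353 CPM in venous against 486 and 549.9 CPM in capillary cells). Platelet RNA was scarce, with 8 platelet markers summing to 13.1 and 14.8 CPM in venous cells and 7.88 and 4.66 CPM in capillary cells, with Pf4 at 0 and 0.690 CPM and Ppbp at 0 and 0.345 CPM in venous cells.

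Of 17 tested prostanoid, histamine and vasomotor genes, 9 were higher, 5 lower and 3 did not pass in venous cells (median log2 change 0.68). Gucy1a1, a subunit of the nitric oxide receptor guanylate cyclase, was at 475 and 257 CPM in venous cells and 2.63 and 6.87 CPM in capillary cells (log2 5.62 ± 0.19 SE), and its partner Gucy1b1 at 26.3 and 21.04 CPM in venous against 1.75 and 7.76 CPM in capillary cells. The cyclooxygenase Ptgs1 was at 353 and 319.8 CPM in venous cells and 75.3 and 44.4 CPM in capillary cells (log2 2.72). Its inducible relative Ptgs2 had 362 UMIs in venous and 3 UMIs in capillary cells over both libraries, a CPM ratio of 357 (95% counting interval 121 to 1741), but only 4 and 21 venous cells carried it and 1 cell gave 57.1% of the UMIs in library 1 and 37.6% in library 2. Hrh1, the histamine receptor by which venules leak, was at 16.9 and 13.8 CPM in venous cells, against 5.25 and 4.88 CPM in capillary cells. Natriuretic peptide receptors moved apart, the signalling receptor Npr1 being higher (237 and 196 CPM in venous against 91.03 and 85.05 CPM in capillary cells) and the clearance receptor Npr3 lower (1.88 and 1.38 CPM in venous against 50.8 and 30.05 CPM in capillary cells). Ednrb, an endothelin receptor, was at 5.63 and 9.31 CPM in venous cells and 129.5 and 113 CPM in capillary cells (log2 -3.66 ± 0.23), and Ace, which makes angiotensin II, at 287 and 343 CPM in venous against 771 and 618 CPM in capillary cells.

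VEGF signalling genes were lower on balance, with 12 of 23 tested genes lower, 8 higher and 3 not passing in venous cells (median log2 change -0.66). Kdr (VEGFR2), the main VEGF receptor, was at 249.7 and 399 CPM in venous cells and 1609 and 1690 CPM in capillary cells (log2 -2.25 ± 0.13 SE). Its co-receptor Nrp1 was at 231 and 306 CPM in venous cells and 1808 and 1829 CPM in capillary cells (log2 -2.65), and Flt4 (VEGFR3) at 15.02 and 37.6 CPM in venous against 119 and 97.9 CPM in capillary cells. The ligand Vegfc was higher, at 105 and 129 CPM in venous cells and 13.1 and 11.3 CPM in capillary cells (log2 3.48), as were the angiopoietin receptor Tek (526 and 424 CPM in venous against 313 and 234 CPM in capillary cells) and the adrenomedullin receptor Calcrl (709.7 and 840.3 CPM in venous against 442 and 375 CPM in capillary cells). Ramp3, a partner of Calcrl, was lower (5.63 and 10.7 CPM in venous against 59.5 and 55 CPM in capillary cells) and Ramp2 higher (log2 0.51). The lower genes Apln and Adm had no UMI in the venous cells of library 1, with 0 and 3.45 CPM for Apln and 0 and 6.90 CPM for Adm in venous cells, against 11.4 and 9.31 CPM for Apln and 14.01 and 15.2 CPM for Adm in capillary cells.

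Notch and guidance genes were also more often lower. Of 17 tested Notch genes, 9 were lower, 3 higher and 5 did not pass in venous cells (median log2 change -0.51). Dll4, the Notch ligand that VEGF induces, was at 24.4 and 46.9 CPM in venous cells and 314 and 345 CPM in capillary cells (log2 -2.97 ± 0.17 SE). The target genes Hey1 (0 and 14.5 CPM in venous against 89.3 and 98.7 CPM in capillary cells) and Hey2 (3.76 and 2.07 CPM in venous against 35.01 and 37.9 CPM in capillary cells) and the receptor Notch4 (3.76 and 15.5 CPM in venous against 116 and 101 CPM in capillary cells) were lower as well. Dll1 was the ligand that rose, at 65.7 and 54.2 CPM in venous cells and 11.4 and 14.5 CPM in capillary cells (log2 2.10). Of 21 tested semaphorin, plexin, ephrin and guidance genes, 13 were lower, 3 higher and 5 did not pass (median log2 change -0.67). Sema7a, a membrane-anchored semaphorin, was at 9.39 and 31.04 CPM in venous cells and 304 and 295 CPM in capillary cells (log2 -3.44), and the netrin receptor Unc5b at 1.88 and 19.7 CPM in venous against 169 and 156 CPM in capillary cells. Efnb2, the ephrin of arteries and ligand of Ephb4, was at 46.9 and 79.7 CPM in venous cells and 278 and 286 CPM in capillary cells (log2 -1.95). The secreted ligands Slit2 and Slit3 moved in opposite directions, Slit2 to 41.3 and 23.5 CPM in venous cells against 0 and 1.55 CPM in capillary cells, and Slit3 to 0 and 8.97 CPM in venous cells against 49.02 and 53.7 CPM in capillary cells.

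Genes of fenestrae, caveolae and transport were mixed. Of 19 tested for fenestral diaphragms, caveolae and transcytosis, 4 were higher, 7 lower and 8 did not pass in venous cells (median log2 change -0.19). The caveolar coat gene Cavin2 was higher (1048 and 1046 CPM in venous against 661 and 566 CPM in capillary cells, log2 0.87) and Cavin3 lower (203 and 314 CPM in venous against 446 and 481 CPM in capillary cells), while Cav1, the core caveolin, did not pass at 787 and 771 CPM in venous against 736 and 628 CPM in capillary cells. Ehd3, a membrane-tubulating ATPase, was at 612 and 643 CPM in venous cells and 167 and 213 CPM in capillary cells (log2 1.79). Cd300lg (nepmucin) was at 1.88 and 42.8 CPM in venous cells and 242 and 252 CPM in capillary cells (log2 -2.87 ± 0.47 SE, edgeR adjusted p = 0.0170), with an adjusted p of 0.0949 under a minimum count of 50 and 0.0734 with DESeq2. Of 26 lipid-handling genes tested, 10 were lower, 4 higher and 12 did not pass (median log2 change -0.28). With DESeq2 3 of them were lower and 2 higher, and without the pairing 6 were lower and 1 higher. The HDL receptor Scarb1 was at 105 and 124 CPM in venous cells and 641 and 465 CPM in capillary cells (log2 -2.06), the fatty acid binder Fabp5 at 180.3 and 256 CPM in venous against 551 and 614 CPM in capillary cells, and Cd36, the fatty acid translocase, at 982 and 1048 CPM in venous against 1260 and 1268 CPM in capillary cells, which did not pass. Lpl passed as higher with opposite directions in the libraries (0 and 19.3 CPM in venous and 12.2 and 7.43 CPM in capillary cells).

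Of 23 solute and ABC transporters tested, 6 were higher, 4 lower and 13 did not pass in venous cells (median log2 change 0.12), against 4 higher and 5 lower without scaling. Over all genes tested, 13.5% were higher and 12.9% lower. Among the 3815 of at least 50 CPM, 834 were higher and 746 lower. Slco3a1, an organic anion and prostaglandin carrier, was at 417 and 417 CPM in venous cells and 65.6 and 37.8 CPM in capillary cells (log2 3.27 ± 0.15 SE). The monocarboxylate carrier Slc16a1 was at 3.76 and 29.7 CPM in venous cells and 102 and 128 CPM in capillary cells (log2 -2.29), and the transferrin receptor Tfrc at 13.1 and 20.7 CPM in venous against 35.9 and 67.97 CPM in capillary cells. Among 11 sphingosine-1-phosphate genes, 1 was higher (the exporter Spns2, log2 0.42), 2 lower and 8 did not pass, while 26.4% of all genes tested passed. Spns2 did not pass with DESeq2 (adjusted p = 0.305), without the pairing (0.161), after thinning (0.0911), with equal numbers of cells (0.192) or with the same limits for both classes (0.0867). Both lower ones were lipid phosphate phosphatases, Plpp3 at 991 and 806 CPM in venous cells and 2779 and 2359 CPM in capillary cells, and Plpp1 at 103 and 130 CPM in venous against 201 and 253 CPM in capillary cells. The receptor S1pr1 did not pass, at 353 and 339 CPM in venous against 347 and 274 CPM in capillary cells.

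Matrix genes went both ways. Of 42 tested, 13 were higher, 16 lower and 13 did not pass in venous cells (median log2 change -0.15). The shares of all genes tested were 13.5% higher and 12.9% lower. The lower ones included basement membrane parts, with the collagen IV chain Col4a1 at 193 and 394 CPM in venous cells and 1731 and 1600 CPM in capillary cells (log2 -2.39) and its partner Col4a2 at 131 and 209 CPM in venous against 932 and 844 CPM in capillary cells. The laminin chain Lama4 was at 45.1 and 77.96 CPM in venous against 295 and 273 CPM in capillary cells, and the linker nidogen Nid2 at 0 and 10 CPM in venous cells against 127 and 137 CPM in capillary cells. Nid1 did not pass, at 199 and 214 CPM in venous cells and 244 and 253 CPM in capillary cells. Col13a1, a transmembrane collagen, was at 11.3 and 41.7 CPM in venous cells and 372 and 335 CPM in capillary cells (log2 -3.26). The higher ones included the proteoglycan Bgn (233 and 272 CPM in venous against 1.75 and 12.1 CPM in capillary cells, log2 4.79), the fibulin Fbln2 (683 and 579.8 CPM in venous against 33.3 and 37.5 CPM in capillary cells, log2 4.15) and Eln, elastin (101 and 248 CPM in venous against 51.6 and 47.01 CPM in capillary cells). Protease genes Adamts4 (1972 and 2122 CPM in venous against 446 and 489 CPM in capillary cells) and Adamts9 (826 and 1002 CPM in venous against 293 and 345 CPM in capillary cells) and the metalloprotease inhibitor Timp2 (107 and 130 CPM in venous against 6.13 and 10.3 CPM in capillary cells) were higher, whereas Timp3 did not pass (989.5 and 915 CPM in venous against 1234 and 1081 CPM in capillary cells). Fibroblast markers, 8 in the list, summed to 13.1 and 222 CPM in venous cells and 17.5 and 201 CPM in capillary cells. Pericyte and smooth muscle markers, 10 in the list, summed to 46.9 and 266 CPM in venous against 119.9 and 146 CPM in capillary cells. Single genes weighed heavily in the latter sums. Abcc9, a member, gave 77.9 and 60.99 CPM of the capillary sums. Tagln gave 45.1 CPM of the venous sum of library 1, with 70.8% of its UMIs there from 1 cell. The part of fibroblast, pericyte and muscle RNA in these changes was not tested.

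Of the antigen presentation genes, all 5 tested of MHC class II passed as higher in venous cells (median log2 change 2.74). Cd74, the invariant chain, was at 398 and 309 CPM in venous cells, in 43 and 125 cells, and 34.1 and 39.1 CPM in capillary cells (log2 3.23 ± 0.15 SE, edgeR adjusted p = 1.77e-97). H2-Ab1 was at 107 and 82.1 CPM in venous cells and 13.1 and 13.97 CPM in capillary cells (log2 2.74). H2-Aa was at 56.3 and 47.3 CPM in venous cells and 7.003 and 10.8 CPM in capillary cells, but its log2 change of 2.37 was 0.48 with equal numbers of cells (edgeR adjusted p = 0.459). Myeloid markers, 9 in the list, summed to 24.4 and 16.6 CPM in venous cells and 21.9 and 24.3 CPM in capillary cells, and those of B-lineage cells to 3.76 and 2454 CPM in venous against 7.88 and 36.4 CPM in capillary cells, the 2454 CPM coming mainly from the Igkc-rich cell named above. The part of myeloid or B-lineage RNA in these changes was not tested. Of 17 class I genes, 6 were higher, none lower and 11 did not pass (median log2 change 0.26), while 1 was higher without the pairing, 2 with DESeq2 and 3 with equal numbers of cells. Among those higher was the peptide transporter Tap1 at 242 and 208 CPM in venous against 134 and 117 CPM in capillary cells. Reads of H2 genes can be shared between near-identical copies, so single H2 values are uncertain.

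Interferon response genes were mostly higher, with 23 of 32 higher, 2 lower and 7 not passing in venous cells (median log2 change 0.78). Iigp1, an immunity-related GTPase, was at 2754 and 2749 CPM in venous cells and 1301 and 1064 CPM in capillary cells (log2 1.32), and the guanylate-binding protein Gbp2 at 205 and 245 CPM in venous against 52.5 and 66.4 CPM in capillary cells (log2 1.99 ± 0.15 SE). Ifit1, a sensor of foreign RNA, was at 208 and 159 CPM in venous cells and 53.4 and 47.1 CPM in capillary cells (log2 1.90), and the membrane restriction factor Ifitm3 at 4625 and 5008 CPM in venous against 2302 and 2612 CPM in capillary cells. Rsad2 (viperin) went the other way, at 13.1 and 7.24 CPM in venous cells and 70.03 and 55.3 CPM in capillary cells (log2 -2.72 ± 0.27). Stat2 and Irf9, which take part in type I interferon signalling, did not pass, with log2 values of -0.35 and -0.10.

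**Figure D4:**
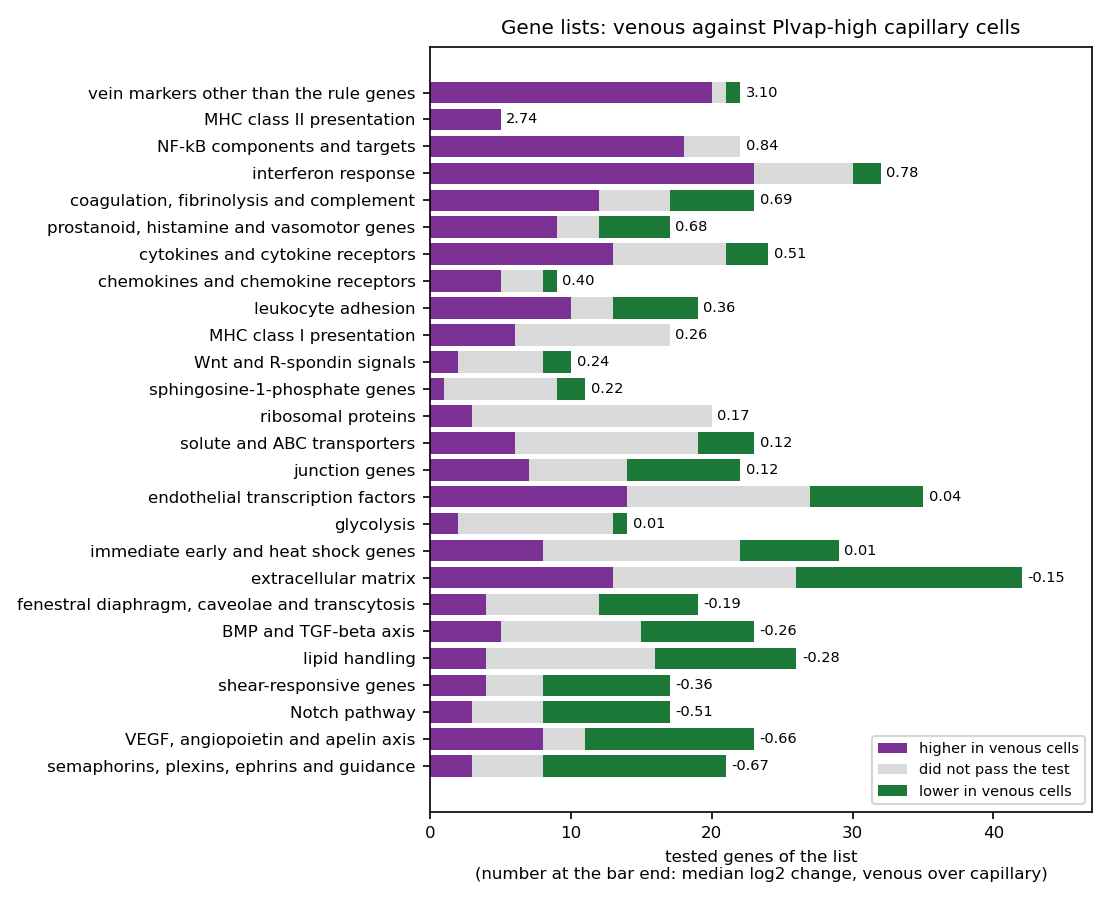
Number of tested genes in each list that were higher (left), not passing (middle) or lower (right) in venous than in Plvap-high capillary cells, ordered by the median log2 change printed at the bar end. Vein marker, MHC class II, NF-kB and interferon lists lie at the top, and guidance, VEGF and Notch lists at the bottom.

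Genes that respond to flow were lower in 9, higher in 4 and not passing in 4 of 17 tested (median log2 change -0.36). With equal numbers of cells 3 were lower and 4 higher (median -0.13), and with DESeq2 4 were lower and 2 higher. The flow-induced factor Klf4 was at 851 and 601 CPM in venous cells and 1097 and 934 CPM in capillary cells (log2 -0.42). Klf2, its partner, passed as lower, but its libraries differed in direction (950.1 and 671 CPM in venous and 935 and 1229 CPM in capillary cells). Nos3, the endothelial nitric oxide synthase, was higher, at 189.6 and 246 CPM in venous against 122 and 164 CPM in capillary cells (log2 0.68), and Nqo1, an antioxidant reductase, at 113 and 92.1 CPM in venous against 14.01 and 15.3 CPM in capillary cells (log2 2.76). Immediate early and heat shock genes, which dissociation of tissue can also induce, gave 8 of 29 higher, 7 lower and 14 not passing (median log2 change 0.01). The shares over all genes tested were 13.5% higher and 12.9% lower. The balance of these 29 genes depended on the setting, with 7 higher and 0 lower without the pairing and 6 and 1 with equal numbers of cells. It was 6 and 3 with DESeq2, and 8 and 11 without scaling. Atf3 was at 1292 and 1229 CPM in venous cells and 762 and 646 CPM in capillary cells (log2 0.94), Fos at 2082 and 1255 CPM in venous against 1885 and 1575 CPM in capillary cells without passing, and the heat shock gene Hspa1a at 372 and 725 CPM in venous against 601 and 1397 CPM in capillary cells (log2 -0.75). Hspa1a differed more between the libraries than between the classes, and without the pairing within libraries its adjusted p was 0.681.

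BMP and TGF-beta genes were lower in 8, higher in 5 and not passing in 10 of 23 tested (median log2 change -0.26). Over all genes tested, 12.9% were lower and 13.5% higher. With equal numbers of cells 3 BMP and TGF-beta genes were lower and 3 higher, and their median was 0.07. The BMP target Id1 was at 129.6 and 193 CPM in venous cells and 420.2 and 666 CPM in capillary cells (log2 -1.67), Id3 at 293 and 448 CPM in venous against 623 and 829 CPM in capillary cells, and the inhibitor Smad7 at 111 and 109 CPM in venous against 205 and 244 CPM in capillary cells. Bmp4, a ligand, was higher, at 13.1 and 36.2 CPM in venous cells and 1.75 and 4.99 CPM in capillary cells (log2 2.92), and the co-receptor Tgfbr3 at 229 and 189 CPM in venous against 90.2 and 69.4 CPM in capillary cells. Of 10 Wnt genes tested, 2 were higher (Wnt5a and Lrp5, log2 4.11 and 0.70), 2 lower (Fzd4 and Tcf7l1, log2 -0.82 and -0.74) and 6 did not pass. With equal numbers of cells 0 were higher and 1 lower, the log2 change of Tcf7l1 being -0.064 (edgeR adjusted p = 0.967), and with DESeq2 neither Tcf7l1 (adjusted p = 0.805) nor Lrp5 (0.297) passed. Glycolysis genes passed in 3 of 14, against 26.4% of all genes tested. The glucose transporter Slc2a1 and Pfkp were higher and Gpi1 lower (log2 0.90, 0.73 and -0.48). Of the ribosomal list, which also holds the elongation factor Eef1a1, 3 of 20 passed, all higher, against 13.5% higher over all genes tested. Their log2 values were 0.49 for Rplp1, 0.38 for Rpsa and 0.34 for Rps24. Of this list 0 passed with equal numbers of cells or with the same limits for both classes, and 1 with DESeq2 or without the pairing. Of 13 mitochondrially encoded genes 11 passed as higher, for example mt-Co1 at 6927 and 7269 CPM in venous cells and 3877 and 4893 CPM in capillary cells (log2 0.79). The higher mitochondrial share of venous cells given above is the sum of these same genes and no separate result. Its part in the changes of other genes was not tested.

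The size of the changes differed between the libraries. Among passing genes of at least 50 CPM, the 746 lower in venous cells had a median log2 change of -1.05 in library 1 and -0.80 in library 2, and 76.1% of them changed more in library 1. The 834 higher ones had medians of 0.74 and 0.69. Among genes with a mean of at least 50 CPM in either class, 5 changed by at least 2 on the log2 scale without passing. They did so in both libraries and in the same direction, and they are named after their values were seen. Cxcl12 is described above. Igfbp3, which binds insulin-like growth factors, was at 15.02 and 135 CPM in venous cells and 1596 and 1536 CPM in capillary cells (log2 -4.07 ± 1.12 SE, edgeR adjusted p = 0.363). Sparcl1, a matricellular protein, was at 58.2 and 260.4 CPM in venous cells and 2113 and 1759 CPM in capillary cells (log2 -3.43), and Rgcc, a cell cycle regulator, at 0 and 66.2 CPM in venous against 350.1 and 394 CPM in capillary cells. Their venous levels were all higher in library 2 than in library 1. No venous value reached a capillary one, which is no separate result, since these genes were chosen by their change in both libraries. Spint2, a protease inhibitor, was the fifth and was above the capillary level, at 272 and 185 CPM in venous cells and 5.25 and 29.5 CPM in capillary cells (log2 3.21). All 5 passed with equal numbers of cells in each class or the same limits for both classes, and 4 passed with DESeq2. All 5 passed without the highest 5% of doublet scores or with a capillary limit of 0 venous UMIs. All 5 also passed with cells thinned to 2000 UMIs, where the classes were called again on the thinned counts. A fit of 4 classes passed 4, and cells of 2000 to 8000 UMIs 3. By contrast, 0 passed without scaling, low-count filter or pairing, or with a minimum count of 50. Also 0 passed with at least 8 venous UMIs or 4 of Ackr1 plus Selp, or with Plvap above 3 times Gpihbp1 plus Aqp1. Limits of 1000 genes and 10% mitochondrial UMIs, or leaving out cells with RNA of other types, gave 0 too.

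Genes differed in the share of venous cells in which a UMI was detected, which depends on depth. The classes here are those called on the full counts. After every cell was thinned to 2000 UMIs, Sele had a UMI in 40.4% of venous cells of library 1 (95% exact interval 30.2 to 51.4%, n = 89) and 45.0% of library 2 (40.1 to 49.9%, n = 418), against 0 of 250 capillary cells (upper limit 1.46%) and 0.105% of 1902 capillary cells. Shallower cells were left out, 8 and 16 venous cells and 51 and 149 capillary cells, and without thinning Sele was in 44.3 and 57.1% of venous cells and in 0 and 0.146% of capillary cells. Icam1 was far broader, in 86.5 and 88.3% of venous cells and 23.6 and 29.3% of capillary cells. Adgrg6 had a UMI in 79.8 and 69.1% of venous cells and in 0 and 0.158% of capillary cells, and Cldn5 in 88.8 and 75.8% of venous cells, against 1.60 and 2.47% of capillary cells. Cxcl10 was in 19.1 and 22.01% of venous cells and 2.40 and 1.10% of capillary cells. Cxcl12 had the reverse pattern, in 8.99 and 24.2% of venous cells and in 94.0 and 94.0% of capillary cells. Esm1 was in 0 and 1.91% of venous cells and 29.2 and 32.8% of capillary cells.

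**Figure D5:**
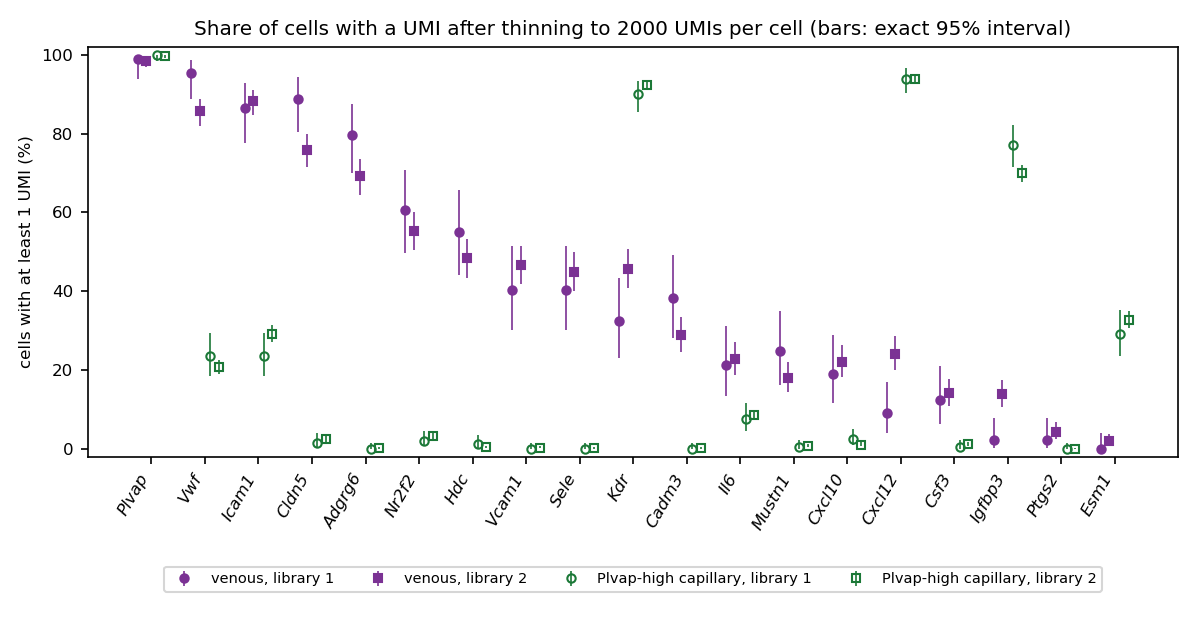
Share of cells with at least 1 UMI of each gene after thinning to 2000 UMIs per cell, for venous (filled) and Plvap-high capillary cells (open) in library 1 (circles) and library 2 (squares), with exact 95% binomial intervals. Sele is in 40.4 and 45.0% of venous cells, while Kdr, Cxcl12, Igfbp3 and Esm1 are in more capillary than venous cells in both libraries.

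Venous cells with a Sele UMI more often also had a UMI of Cxcl10, Il6, Icam1, Vcam1 and Hdc than venous cells without one, in both libraries, but not of Cytl1 or Cadm3. Cxcl10 had a UMI in 33.3% of Sele-positive cells of library 1 and 36.2% of those of library 2, against 9.43 and 10.4% of Sele-negative cells. Il6 was in 30.6 and 30.9% of Sele-positive cells, against 15.1 and 16.1% of Sele-negative cells, and Icam1 in 97.2 and 97.9% of Sele-positive, against 79.2 and 80.4% of Sele-negative cells. Vcam1 was in 47.2 and 56.9% of Sele-positive cells, against 35.8 and 38.3% of Sele-negative cells. Hdc was in 66.7 and 56.4% of Sele-positive cells, against 47.2 and 41.7% of Sele-negative cells. Cytl1 had the opposite order, in 52.8 and 42.6% of Sele-positive against 67.9 and 48.7% of Sele-negative cells, as did Cadm3, in 30.6 and 28.2% of Sele-positive against 43.4 and 29.6% of Sele-negative cells. Adgrg6 was slightly more frequent with Sele, in 80.6 and 70.7% of Sele-positive cells, against 79.2 and 67.8% of Sele-negative cells. Vwf was in 91.7 and 86.2% of Sele-positive, against 98.1 and 85.2% of Sele-negative cells. These shares come from cells of 1 library each and are a description with no test.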

How the data were processed

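RNA of sorted ileal endothelial cells was measured in 2 single-cell libraries. The deposited values are raw UMI counts per gene and cell, which the authors made with Cell Ranger 3.1.0 and bcl2fastq 2.2 on mm10, per the submitters' processing notes. They were not normalized.

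UMIs were summed per library and class and tested with edgeR 4.0.16 (R 4.3.3; quasi-likelihood, robust, TMM scaling, minimum count 10, library as a block, Benjamini-Hochberg false discovery rate 0.05). The pairing comes from the libraries themselves, since both classes of a library share 1 cell suspension. The 18 genes of the rule were not tested. Log2 changes per library used CPM plus 1. Lists hold only genes that passed the filter on low counts, so their counts do not cover all members. DESeq2 1.42.0 was an alternative. Cells were read with Python 3.11.15 and Scrublet in scanpy 1.11.5, which called 4 and 5 cells in all as doublets. That is too few for a working caller, so none were removed. Depth was 532588 and 2899035 UMIs in venous sums and 1142443 and 9018473 in capillary sums, and intervals cover counting error only. Near-identical gene copies (Hspa1a, Gbp, Ifit3, H2 and Ly6 genes) can share reads and are uncertain.

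Named genes were the 12 largest increases and decreases that reached 50 CPM in each library wherever they were higher, and up to 4 passing members per list that reached 20 CPM likewise. Other members named in the text were chosen after their values were seen. The classes, lists and members were chosen with earlier results of these data known. Positions are from GENCODE vM21 on GRCm38, matched for 9969 of 9978 tested genes. The fit was checked on simulated counts. Alternatives changed the scaling, filters, block, limits, depth, cell numbers, doublet scores and cells with RNA of other types.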

Additional observations from a re-analysis of the deposited data

How the results depend on the processing

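The count of 2633 passing genes (1343 higher, 1290 lower) moved by over 1.5 times under 5 alternatives, and the cause was not tested unless stated. DESeq2 gave 911 (552 higher, 359 lower). Without the replicate block that pairs the classes within libraries it was 1577 (842 higher, 735 lower). Thinning to 2000 UMIs, where 7428 genes were tested, gave 1713 (793 lower). There the class rule was applied again to the thinned counts, which gave 83 and 346 venous and 298 and 2199 capillary cells. Equal numbers of cells, where 6779 genes were tested, gave 1024 (565 higher, 459 lower). More than 1 UMI of Sema3g, Fbln5, Stmn2, Gja5 and Bmx together, barred only in capillary cells, was in 46.4 and 56.9% of venous cells. Applying the same limits to both classes, chosen after seeing the data, left 45 and 164 venous cells and gave 1327 (756 higher, 571 lower). Of these calls 907, 1577, 1568, 972 and 1293 were among the 2633 with the same direction. The other alternatives gave 2038 to 2746. Without scaling, 2688 passed, and the balance turned to 1130 higher and 1558 lower. None of the 106 named genes changed direction under any alternative. They were chosen among passing genes by the size of their change, so this is no separate result. Klf2, Lpl and Tnip1, whose libraries differed in direction, are not among the 106. DESeq2 lost 19 of the 106, the fit without pairing 13, equal numbers of cells 17, the same limits for both classes 8 and thinning 2. Leaving out a library leaves 1 sum per class and no test. Library 1 limits low genes most, since its venous sum holds 532588 UMIs.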
